A study of Mus musculus with 8 samples.

Results

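The genes described here encode the mouse receptors that bind the constant part of immunoglobulin G and the proteins through which they signal. They are the IgG receptors Fcgr1, Fcgr2b, Fcgr3 and Fcgr4, the neonatal receptor Fcgrt, the adaptors Fcer1g and Tyrobp, and the kinase Syk. The 8 genes were chosen by name, and all 8 were measured among 18193 genes on the array. Each gene was read from 1 probe set, selected on measured brightness as the one with the highest mean over the 8 arrays. The family was proposed with earlier results of these arrays known, so the values below describe it and do not test it as a group.

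The arrays hold RNA of GFP-positive cells sorted from kidneys of FSP1-eGFP mice on a C57BL/6 background, labelled male and 6 months old. In these mice the promoter of FSP1 (S100a4) drives the reporter, which is used to mark fibroblasts and is known to be active in macrophages and other leukocytes too. The ischemic group held 5 left kidneys taken 3 days after the renal artery and vein were closed by a clamp, for 45 minutes, and released. The normal group held 3 kidneys, called normal in the titles and sham controls in another label. The labels give buprenorphine after surgery, and do not say whether the normal kidneys came from separate mice, so p-values measure the spread between these arrays. The comparison asks how reporter-positive cells of an acutely injured kidney differ from those of an uninjured one.

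Some facts of the arrays bear on every value. Macrophage markers were bright, since 11 of 11 measured ones reached the median gene's level. So did 6 of 6 proximal tubule, 6 of 6 endothelial and 4 of 8 fibroblast markers. Proximal tubule markers had a mean of 6.56 in the ischemic and 9.80 in the normal arrays, and macrophage markers 9.86 and 8.98. The groups did not overlap in either mean. S100a4 itself lay between 11.53 and 12.22 in the ischemic and between 11.30 and 11.94 in the normal arrays. Although all mice are labelled male, 3 arrays (ischemic 1, ischemic 2 and normal 1) had Xist, which the inactive X makes, at 9.39 to 11.21, and the other 5 at 4.49 to 4.96. The Y-linked gene Eif2s3y was at 5.84 in both ischemic 1 and normal 1, and at 7.68 to 8.87 elsewhere. Ischemic 1 also stood apart over all genes, its correlations with the others having a median of 0.753. Values are log2(intensity + 16) after quantile normalization, which understates the change of dim genes. In sorted cells measured in bulk, more cells of a type and more RNA per cell cannot be told apart.

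Receptors for IgG let leukocytes bind antibody-coated particles and immune complexes. Fcgr1 binds monomeric IgG with high affinity, whereas Fcgr3 and Fcgr4 bind it weakly and respond to complexes, and these activating receptors need the gamma chain Fcer1g, whose tyrosine motif recruits Syk when phosphorylated. Fcgr2b is the inhibitory receptor, with its own motif that recruits the phosphatase SHIP1 (Inpp5d). Tyrobp (DAP12) is a sister adaptor of Fcer1g that serves other receptors, and Fcgrt (FcRn), a relative of MHC class I proteins that pairs with beta-2-microglobulin, carries IgG and albumin back out of endosomes. In the kidney these receptors are known from resident macrophages and from immune complex disease, and Fcgrt also from endothelium, podocytes and proximal tubule.

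The start regions of the IgG receptor genes are shown because the genes differ in their values below and share short letter patterns there. RefSeq windows of GRCm38.p6, from 250 bases before the annotated start to 50 bases from it on, were held for 7 of the 8 genes (9 windows), not for Tyrobp. Capitals mark GAGGAA on either strand (TTCCTC as printed), the core of sites of PU.1, a transcription factor of myeloid cells. The windows lie at chr3:96293920-96294219 (minus strand), chr1:171059354-171059653 (minus strand, 1 of its 2 starts), chr1:171018676-171018975 (plus strand) and chr1:170976022-170976321 (minus strand). Each is printed 5′ to 3′ on the strand of its gene.
Fcgr1: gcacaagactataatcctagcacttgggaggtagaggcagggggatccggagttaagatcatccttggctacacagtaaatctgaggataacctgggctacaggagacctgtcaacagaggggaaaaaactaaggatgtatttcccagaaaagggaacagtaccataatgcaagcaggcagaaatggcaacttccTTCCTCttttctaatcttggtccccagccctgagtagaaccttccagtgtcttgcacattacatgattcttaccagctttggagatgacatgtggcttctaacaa
Fcgr3: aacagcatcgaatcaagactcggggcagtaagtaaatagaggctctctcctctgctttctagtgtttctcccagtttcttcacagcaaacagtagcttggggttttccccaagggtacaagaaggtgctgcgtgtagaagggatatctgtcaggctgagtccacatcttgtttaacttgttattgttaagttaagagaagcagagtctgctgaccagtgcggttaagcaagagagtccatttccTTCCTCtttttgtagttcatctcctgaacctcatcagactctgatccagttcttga
Fcgr4: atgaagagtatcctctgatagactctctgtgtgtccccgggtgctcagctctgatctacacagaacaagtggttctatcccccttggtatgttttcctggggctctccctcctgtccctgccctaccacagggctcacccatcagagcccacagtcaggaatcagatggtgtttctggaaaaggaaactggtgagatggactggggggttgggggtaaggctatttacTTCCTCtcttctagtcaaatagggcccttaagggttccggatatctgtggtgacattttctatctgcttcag
Fcgr2b: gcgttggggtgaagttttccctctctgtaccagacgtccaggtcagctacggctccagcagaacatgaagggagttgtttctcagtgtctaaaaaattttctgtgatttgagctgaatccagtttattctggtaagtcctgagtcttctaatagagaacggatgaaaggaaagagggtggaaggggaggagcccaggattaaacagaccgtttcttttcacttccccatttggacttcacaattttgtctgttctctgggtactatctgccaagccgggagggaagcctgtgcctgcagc

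The windows of all 3 activating receptors held GAGGAA close to the start, and that of Fcgr2b did not. Counted from the start, it lay at −55 to −50 in Fcgr1, at −6 to −1 in Fcgr3 and at −22 to −17 in Fcgr4. Of 32851 windows of the same length in the table, 28.3% held it on either strand, so its presence is common. Beside the receptors, 1 of the 2 Syk windows held it, and those of Fcer1g and Fcgrt did not. Of 4 further patterns searched on both strands, GGAAGT was in windows of Fcgr1, Fcgr2b, Fcgr4 and Syk (23.8% of all windows), and the longer AGGAAGT that contains it in those of Fcgr1 and Fcgr4 (9.35%). CAGGAA was in windows of Fcer1g, Fcgr4, Fcgrt and Syk (30.6%). The AP-1 form TGAGTCA was in none of the 9 (5.2%). Matches of these patterns can share bases, as they do in Fcgr1 and Fcgr4. The patterns were chosen with the values below known, and a match is a description of letters, not of a bound site.

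All 8 genes had a higher mean in the ischemic arrays, with a median difference of 0.43, and none passed limma. Over all genes the median difference was 0.041 and 54.8% were positive. The limma test with Benjamini-Hochberg adjustment called 0 of 18193 genes (0%) and 0 of the 8, whose adjusted p ran from 0.236 for Fcgr1 to 0.970 for Fcgr4. At an unadjusted p under 0.05 there were 1297 genes in all. Of these, 384 were higher in the ischemic arrays (2.11% of genes), among them Fcgr1 and Fcgr3. Every ischemic array lay above every normal array for Fcgr1 only, 1 of 8, against 344 of all genes (1.89%). The opposite, every ischemic array below, held for 0 of 8 and for 625 of all genes (3.44%). The median over the 8 was 0.22 without normal 1 and 0.69 without normal 3.

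**Figure D1:**
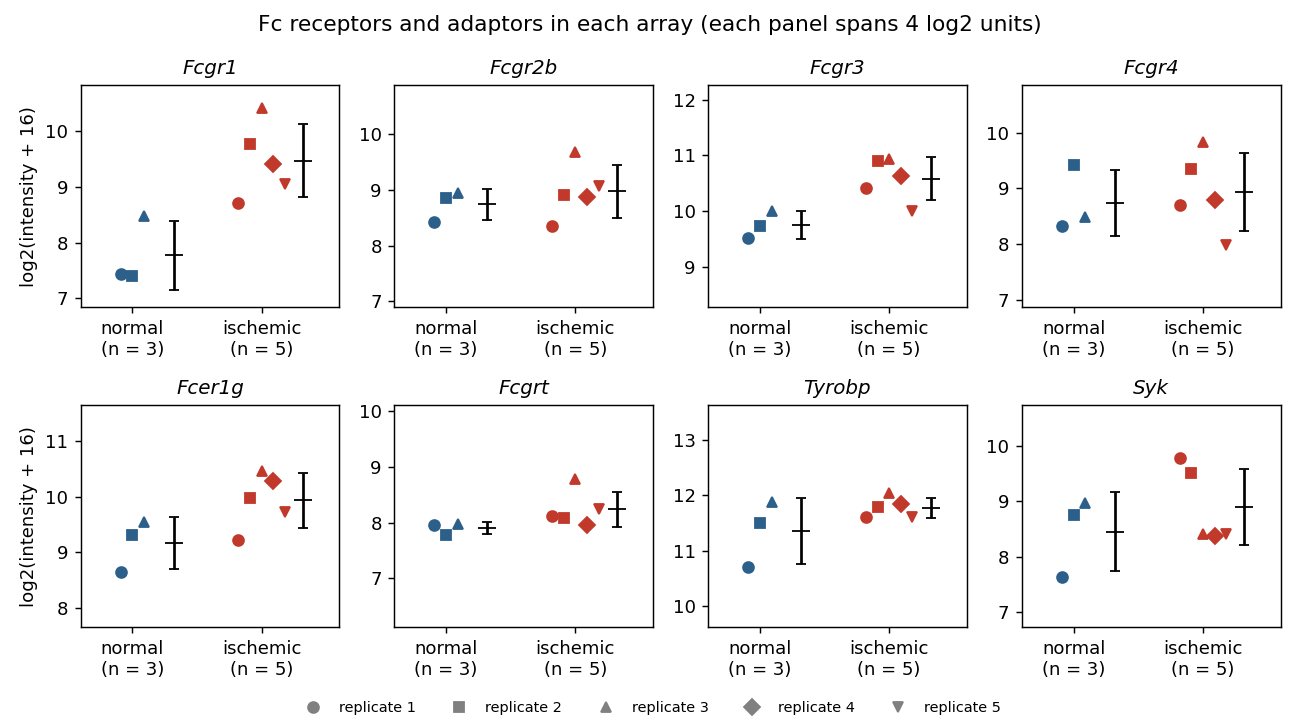
Level of each gene on the log2(intensity + 16) scale in the 3 normal (blue) and 5 ischemic (red) arrays. The marker shape gives the replicate number of the labels, which was not used to pair arrays in the main test. The black bar gives the group mean ± SD. Each panel spans 4 log2 units. Only in the Fcgr1 panel do the groups stand apart, with 8.72 as the lowest ischemic and 8.48 as the highest normal value, and in the Syk panel ischemic 1 and 2 sit above the rest.

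Fcgr1, the high-affinity receptor, showed the largest difference of the 8. Its level was 8.72, 9.77, 10.43, 9.42 and 9.05 in ischemic 1 to 5, and 7.43, 7.40 and 8.48 in normal 1 to 3. The groups did not overlap, although normal 3 came close to ischemic 1, the lowest of its group. The ischemic mean was 9.48 ± 0.66 (SD, n = 5) against 7.77 ± 0.61 (SD, n = 3). The difference of 1.71 ± 0.43 (SE), or 3.27-fold on this scale, had a 95% interval of 0.72 to 2.69 and did not pass limma (adjusted p = 0.236). With each array left out in turn it stayed between 1.47 and 2.06, and among the 5 arrays with low Xist it was 1.69. Scaled by array medians instead it was 1.54, and scaled by ribosomal protein genes 1.44, and in both cases the groups overlapped. The dimmer second probe set of Fcgr1 gave 0.73 ± 0.77 (SE), with groups that overlapped and only 4.31 in ischemic 4.

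Fcgr3, a low-affinity activating receptor found on macrophages, neutrophils and NK cells, differed by less. It was at 10.42, 10.90, 10.94, 10.63 and 10.00 in ischemic 1 to 5, and at 9.51, 9.74 and 10.01 in normal 1 to 3. Only ischemic 5 fell inside the normal range, just under normal 3. The difference was 0.83 ± 0.27 (SE), 1.77-fold, with a 95% interval of 0.20 to 1.45 (limma adjusted p = 0.457). It was 0.71 to 0.97 with each array left out, 0.65 among the low-Xist arrays, and 0.49 when scaled by ribosomal protein genes.

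Fcgr4, an activating receptor for IgG2 complexes on monocytes, macrophages and neutrophils, gave no clear direction. It stood at 8.71, 9.34, 9.83, 8.80 and 7.98 in ischemic 1 to 5 and at 8.31, 9.42 and 8.49 in normal 1 to 3. Ischemic 5 was the lowest of all 8 arrays and ischemic 3 the highest, while normal 2 exceeded 4 of the 5 ischemic arrays. The difference of 0.19 ± 0.44 (SE) had an interval of −0.82 to 1.20 (limma adjusted p = 0.970). It was −0.036 without ischemic 3, −0.025 without normal 1, −0.026 with arrays centred on their medians, −0.13 centred on ribosomal protein genes and −0.087 among the low-Xist arrays.

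Fcgr2b, the inhibitory receptor, was nearly level between the groups. Its values were 8.35, 8.90, 9.68, 8.88 and 9.08 in ischemic 1 to 5 and 8.43, 8.86 and 8.94 in normal 1 to 3. Ischemic 3 was the highest and ischemic 1 the lowest array, so the ischemic range enclosed the normal one. The difference was 0.23 ± 0.31 (SE), interval −0.47 to 0.94 (limma adjusted p = 0.954), 0.058 without ischemic 3 and −0.065 centred on ribosomal protein genes. Its 4 other probe sets differed by −0.19, −0.069, 0.020 and 0.43, each with a limma adjusted p of 0.950 or more. The extracellular parts of Fcgr2b and Fcgr3 are very alike, and all Fcgr2b probe sets that gave signal carry a suffix for probes shared between transcripts. The remaining one was at 4.09 to 4.41 in all arrays, next to the floor. How much Fcgr3 signal the Fcgr2b probe sets pick up was not tested.

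**Figure D2:**
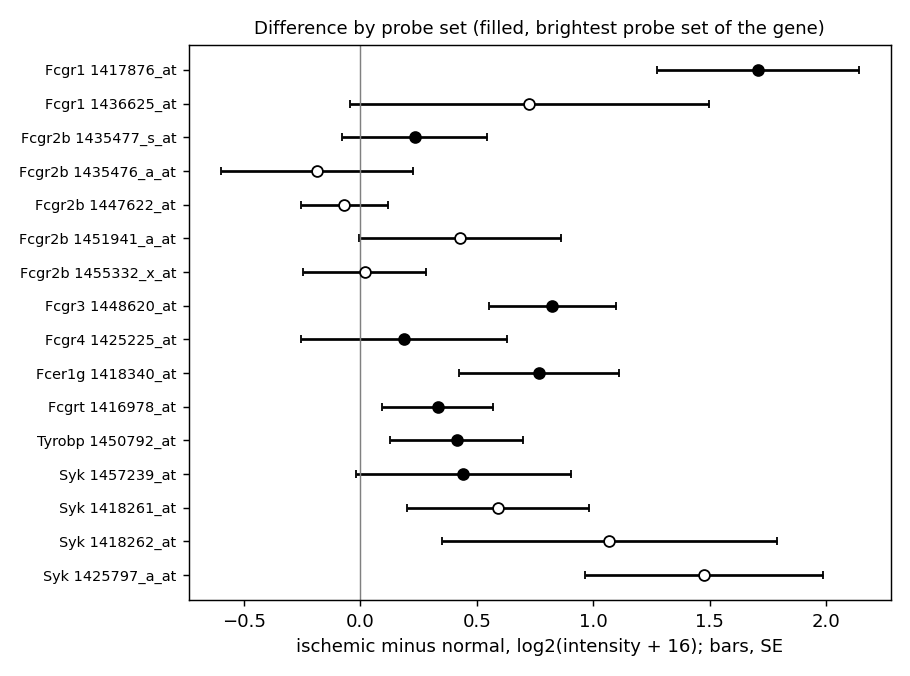
Difference between ischemic and normal means for each of the 16 probe sets of the 8 genes, on the log2(intensity + 16) scale, with bars for the limma SE; filled points are the brightest probe set of a gene. Probe sets of Fcgr2b lie on both sides of 0, from −0.19 to 0.43, and those of Syk run from 0.44 to 1.48.

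Within an array, the activating receptors were set against Fcgr2b as a difference of log2 values, whose change between groups shows unequal change and not which gene is more abundant. Fcgr1 minus Fcgr2b was 0.37, 0.87, 0.75, 0.53 and −0.032 in ischemic 1 to 5, and −1.0, −1.46 and −0.47 in normal 1 to 3. All ischemic arrays were above all normal ones, with means 1.47 apart. For Fcer1g minus Fcgr2b the means were 0.53 apart and the groups barely stood apart, with 0.64 as the lowest ischemic and 0.61 as the highest normal value. Another Fcgr2b probe set was at 8.99 in ischemic 2 and 7.07 in normal 1, where Fcer1g was at 9.98 and 8.65. Set against that probe set, the Fcer1g groups overlapped. For Fcgr3 the means were 0.59 apart with overlap (1.6 ± 0.50, SD, n = 5, against 1.01 ± 0.11, SD, n = 3), and for Fcgr4 they were −0.044 apart. These differences were not tested, since the genes were chosen with their values known. The share of all genes that lie apart when set against Fcgr2b was not counted.

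Fcer1g, the gamma chain that the activating receptors share, followed Fcgr3 in size. It was at 9.22, 9.98, 10.47, 10.29 and 9.72 in ischemic 1 to 5 and at 8.65, 9.30 and 9.55 in normal 1 to 3. Ischemic 1 lay below both normal 2 and normal 3, and the other 4 ischemic arrays lay above all normal ones. The difference of 0.77 ± 0.34 (SE), 1.70-fold, had an interval of −0.018 to 1.55 (limma adjusted p = 0.718). It ran from 0.51 without normal 1 to 0.96 without normal 3, and was 0.73 among the low-Xist arrays. With only 3 against 2 arrays there, Fcgr1 and Fcer1g lay apart upward, as 10.5% of all genes did. Syk, in its brightest probe set, lay apart downward, as 10.3% did, and in its other probe sets these groups overlapped.

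Tyrobp was at 11.60, 11.79, 12.04, 11.85 and 11.61 in ischemic 1 to 5 and at 10.71, 11.50 and 11.88 in normal 1 to 3. The spread lay in the normal arrays, where normal 1 was the lowest of all 8 and normal 3 exceeded 4 of the 5 ischemic arrays. The difference of 0.41 ± 0.29 (SE; limma adjusted p = 0.903) was 0.14 among the low-Xist arrays. Tyrobp thus rests on normal 1, without which it differed by 0.087.

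Syk, the kinase that docks on both adaptors and on B cell receptors, was read by 4 probe sets that differed in size. Its brightest one read 9.78, 9.51, 8.41, 8.37 and 8.42 in ischemic 1 to 5 and 7.64, 8.75 and 8.97 in normal 1 to 3. Ischemic 1 and 2 were high, the other 3 ischemic arrays lay below normal 2 and 3, and normal 1 was the lowest. The difference was 0.44 ± 0.46 (SE; limma adjusted p = 0.953), 0.037 without normal 1 and −0.46 among the low-Xist arrays. The other 3 probe sets gave 0.59, 1.07 and 1.48, the last with limma adjusted p = 0.501. In that one normal 1 and 2 were at 6.57 and 6.94 and all other arrays at 8.58 to 9.58. The low-Xist value of −0.46 belongs to the brightest probe set. It was not computed for the others, in which the low-Xist groups overlapped.

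Fcgrt, which recycles IgG and is not a receptor of phagocytosis in the sense of the others, had the narrowest normal range. Its level was 8.12, 8.09, 8.78, 7.96 and 8.24 in ischemic 1 to 5, and 7.95, 7.78 and 7.98 in normal 1 to 3. Ischemic 3 stood highest, and ischemic 4 fell among the normal arrays. The difference of 0.33 ± 0.24 (SE; limma adjusted p = 0.917) was 0.20 without ischemic 3 and 0.059 centred on ribosomal protein genes. Of the cells known to express it outside the myeloid line, proximal tubule markers had a mean per array of 5.52 to 7.41 in the ischemic and 8.56 to 10.56 in the normal arrays, with a median difference of −3.45 and 6 of 6 negative. Endothelial markers spanned 6.99 to 9.97 and 7.99 to 9.54, with 1 of 6 positive. Their part in the Fcgrt value was not tested. B2m, the light chain that FcRn needs, differed by −0.061 ± 0.20 (SE; limma adjusted p = 0.973). Rab11a and Myo5b, which act in endosomal recycling, were at −0.75 ± 0.60 and −1.08 ± 0.52 (SE). The median of these 3 partners was −0.75, with 0 past limma, and it was −0.38 without ischemic 1 and −0.49 without normal 2. With array weights it was −0.19, and without cross-matching probe sets −0.061, so its size depends on the probe sets read.

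Most of the 8 genes moved with macrophage markers from array to array. The mean of 11 macrophage and monocyte markers, none of them among the 8, was 9.28, 10.03, 10.36, 10.05 and 9.60 in ischemic 1 to 5 and 8.72, 9.17 and 9.05 in normal 1 to 3. All 11 were positive, with a median difference of 0.73 and 0 past limma, and the groups did not overlap in the mean. Over the 8 arrays the correlation with this mean was 0.95 for Fcer1g, 0.93 for Fcgr1 and 0.90 for Fcgr3. It was 0.74 for Tyrobp, 0.71 for Fcgr2b, 0.65 for Fcgrt, 0.56 for Fcgr4 and 0.15 for Syk. After group means were subtracted it was 0.93 for Fcer1g, 0.83 for Fcgr2b, 0.79 for Fcgr1, 0.74 for Fcgr4, 0.73 for Fcgr3, 0.63 for Tyrobp, 0.39 for Fcgrt and −0.21 for Syk. These 8 points share their array, its labelling and its normalization, and the correlations are a description. Each gene is its brightest probe set here, and no correlation with the markers was computed for the other Syk probe sets.

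**Figure D3:**
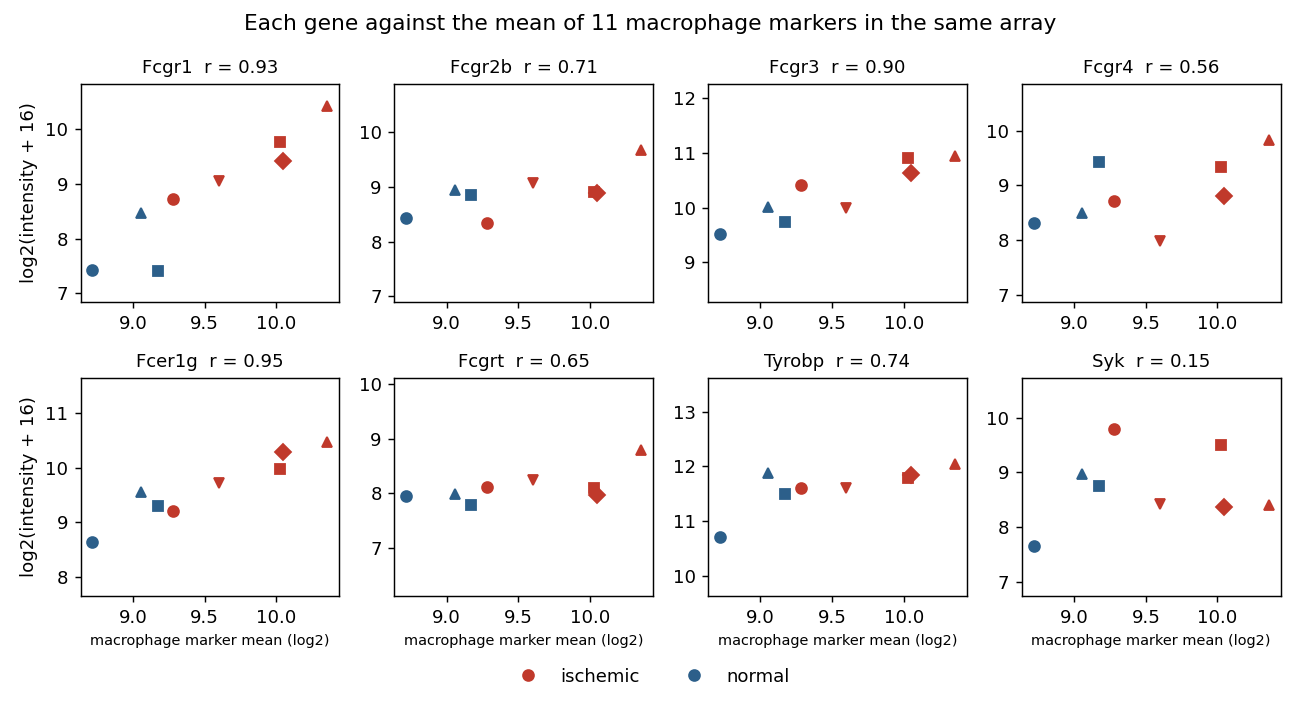
Level of each gene (vertical axis, log2(intensity + 16), 4 log2 units per panel) against the mean of 11 macrophage markers in the same array (horizontal axis, log2), with ischemic arrays in red, normal arrays in blue and the replicate number as marker shape. Points of Fcer1g, Fcgr1 and Fcgr3 rise along the axis (r of 0.95, 0.93 and 0.90 over 8 arrays), and those of Syk do not (0.15). Each gene is its brightest probe set, and the other Syk probe sets are not shown.

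Centring the arrays on the macrophage markers, instead of by quantiles, moved all genes down together. The median of all genes was then −0.72 and 95.8% of genes were negative, so a sign on this scale says little by itself. Fcgr1 was at 0.81 ± 0.47 (SE), Fcgr3 at −0.13 and Fcer1g at −0.18. Tyrobp was at −0.42, Syk at −0.46, Fcgrt at −0.57, Fcgr2b at −0.69 and Fcgr4 at −0.76. Every ischemic array lay below every normal array for Fcgr2b and Fcgr4, as it did for 17.4% of all genes. For Fcgr4 the groups overlapped when the marker mean was taken from the quantile normalized values, with −0.53 in ischemic 3 and −0.56 in normal 3. None of the 8 passed limma on this scale, where the lowest adjusted p was 0.287, for Fcgr1. The marker mean holds Mrc1, the mannose receptor, at 2.08 ± 0.31 (SE), and Cx3cr1, the fractalkine receptor, at 1.77 ± 0.40 (SE), as well as Csf1r, the CSF-1 receptor, at 0.64 ± 0.29 (SE) and Lyz2, lysozyme, at 0.38 ± 0.23 (SE). Values relative to it therefore depend on which markers it holds.

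In the means of the markers of other leukocytes, of podocytes and of fibroblasts the groups overlapped. Neutrophil markers, with Fcgr3 and Fcgr4 in mind, had a mean per array of 4.98 to 6.11 in the ischemic and 5.19 to 5.86 in the normal arrays, with 3 of 8 positive and 3 of 8 dim on average (below an intensity of 16). NK cell markers spanned 5.30 to 5.75 and 5.46 to 5.99, with 0 of 5 positive. Mast cell and basophil markers spanned 4.61 to 5.4 and 4.66 to 4.87, with 4 of 6 dim. Dendritic cell markers spanned 6.41 to 6.90 and 5.94 to 7.08, with 2 of 5 positive. Podocyte markers spanned 6.02 to 7.80 and 6.46 to 7.66, and fibroblast markers 5.4 to 7.05 and 5.46 to 6.12.

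Lymphocyte markers differed between arrays more than between groups. The B cell marker mean was 8.95 in ischemic 1, 7.25 in ischemic 2 and 6.59 in normal 1, and 4.93 to 5.29 in the other 5. T cell markers were at 8.21, 6.82 and 7.60 in the same 3 arrays and at 4.74 to 6.41 elsewhere. These are the 3 arrays with high Xist. Syk, which B cells need, was highest in ischemic 1 and 2 but lowest in normal 1, in its brightest probe set. Another Syk probe set was highest in ischemic 2 and 4 (9.63 and 9.53), with 8.22 in ischemic 1 and its lowest value in normal 1 (5.81). Fcgr2b, the IgG receptor of B cells, was lowest in ischemic 1 and normal 1 in its brightest probe set. Another Fcgr2b probe set was lowest in ischemic 1 (6.68), with 7.65 in normal 1. A further one was lowest in normal 1 (7.07), followed by ischemic 1 (7.69). The remaining one with signal was lowest in ischemic 4 (8.30), with 8.82 in ischemic 1. The part of lymphocytes in either gene was not tested.

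Among themselves, the 8 genes gave 28 pairs. The highest correlation over the 8 arrays was 0.93, between Fcgr1 and Fcgr3, followed by 0.89 between Fcgr1 and Fcer1g and 0.86 between Fcer1g and Tyrobp. Fcgr3 and Fcer1g reached 0.84. Every pair below 0.25 involved Syk, read from its brightest probe set only. Within groups, with means subtracted, Fcgr1 kept 0.80 with Fcgr3 and 0.82 with Fcer1g, and Fcgr2b had 0.84 with Fcer1g.

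Beyond the family, the genes most like each member were sought among 9096 genes at or above the median level, by Pearson correlation over the 8 arrays. Those nearest to Fcgr1 were Ctsc (0.99), which encodes cathepsin C, Arhgap9 (0.98) and Vsir (0.98). Nearest to Fcgr3 were Pld4 (0.99), Lst1 (0.98) and Ptpn6 (0.98), the phosphatase SHP-1. For Fcer1g they were Batf, Cyp4f16 and Cfp, which encodes properdin (0.98, 0.97 and 0.97), and for Tyrobp Cxcl2, Csf2rb and Gas7 (all 0.97). Fcgr2b was closest to Pgm2 (0.99), Dip2b (0.96) and Topbp1 (0.96). Fcgr4 reached only 0.93 with Taldo1, and 0.89 with Capzb and Mrpl21. Fcgrt was closest to Cstb (0.95), Cdc26 (0.94) and Psma5 (0.93), and Syk to Dennd4a (0.95), Map3k1 (0.95) and Psmd9 (0.94). With 8 arrays and so many genes, high values of this kind are common.

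The other Fc receptors went in different directions. Of 10 measured, 7 were positive, 0 passed limma in either direction, and the median was 0.14. That median had no stable sign, being −0.049 without ischemic 1, −0.022 without normal 3 and −0.041 among the low-Xist arrays. Fcrls, an Fc receptor-like gene of macrophages and microglia, was at 6.26, 8.52, 9.0, 7.60 and 8.11 in ischemic 1 to 5 and at 4.33, 4.70 and 5.28 in normal 1 to 3, so the groups stood apart. Its difference was 3.13 ± 0.58 (SE; limma adjusted p = 0.140). Fcamr, the receptor for IgA and IgM, lay apart the other way, at 4.30 to 4.64 in the ischemic and 4.90 to 6.03 in the normal arrays (−1.18 ± 0.29, SE; limma adjusted p = 0.221). Its ischemic values were near the floor. Of all genes, 1.89% lay apart upward and 3.44% downward. Pigr, which carries IgA and IgM across epithelium and is named after its value was seen, was at −2.08 ± 0.63 (SE; limma adjusted p = 0.372) with overlap. The brightest of the list were Fcrla, of B cells, at 0.19 ± 1.13 (SE), and Trim21, a cytosolic antibody receptor, at 0.17 ± 0.28 (SE).

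Signalling genes downstream of the receptors had mostly positive differences, on the activating and on the inhibitory side alike. Of 16 measured kinases, lipases and scaffolds, 15 were positive, with a median of 0.58 (0.39 without ischemic 3) and 0 past limma. Pik3cd, a catalytic subunit of phosphoinositide 3-kinase, was at 1.24 ± 0.47 (SE; limma adjusted p = 0.599) and the adaptor Blnk at 0.92 ± 0.39 (SE; limma adjusted p = 0.681). The brightest, Prkcd (protein kinase C delta) and Plcg2 (phospholipase C gamma 2), were at 0.36 ± 0.27 and 0.37 ± 0.42 (SE). Of 16 measured phosphatases, ubiquitin ligases and inhibitory receptors, 15 were positive, with a median of 0.51 and 0 past limma. Dok1, an inhibitory docking protein, was at 0.98 ± 0.29 (SE; limma adjusted p = 0.351) with groups that did not overlap, and Ptpn6 at 1.10 ± 0.34 (SE; limma adjusted p = 0.392). The brightest of these were Sirpa at 0.68 ± 0.32 and Cd300a at 0.53 ± 0.37 (SE), both inhibitory receptors of myeloid cells. Scaled by ribosomal protein genes, the medians were 0.33 and 0.26.

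Other receptors that use Tyrobp, Fcer1g or Syk were more mixed, with 12 of 17 positive, a median of 0.36 and 0 past limma. Clec4n (dectin-2), a fungal sugar receptor that pairs with Fcer1g, was at 8.98, 9.33, 9.80, 9.33 and 9.26 in ischemic 1 to 5 and at 6.74, 7.02 and 9.30 in normal 1 to 3. Normal 3 thus lay inside the ischemic range and the other 2 far below it. The difference was 1.65 ± 0.55 (SE; limma adjusted p = 0.454). Clec1b, the podoplanin receptor, was at −1.04 ± 0.42 (SE; limma adjusted p = 0.642). Its groups barely stood apart, with 5.5811 as the highest ischemic and 5.5845 as the lowest normal value. Of all genes, 3.44% lay apart in this direction. The brightest were Itgb2, the beta-2 integrin chain, at 0.36 ± 0.32 and Clec4d at 0.56 ± 0.62 (SE). All 7 other adaptors with tyrosine motifs or alike were positive (median 0.35, 0 past limma), though the median was −0.090 without ischemic 1, 0.70 without ischemic 5, 0.82 without normal 1 and 0.19 without normal 3. The brightest, Cd247 and Cd3e of T cells, were at 0.32 ± 0.40 and 0.17 ± 1.11 (SE), and Cd3g was at 1.02 ± 1.10 (SE).

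The phagocyte oxidase, which activating Fc receptors trigger, had 4 of 4 measured subunits positive, with a median of 0.58 and 0 past limma. Cybb and Cyba, its membrane subunits, were at 0.32 ± 0.25 and 0.16 ± 0.22 (SE). The cytosolic subunits Ncf1 and Ncf4 were at 0.96 ± 0.42 and 0.83 ± 0.51 (SE). The median was 0.18 without normal 1. Of 7 measured immunoglobulin and pentraxin genes, 6 were positive, with a median of 0.67 and 0 past limma. The median was 0.44 without ischemic 1 and 0.12 among the low-Xist arrays. The brightest, the heavy chains Ighm of IgM and Igha of IgA, were at 1.12 ± 0.81 and 0.90 ± 0.65 (SE). Ighg3, the measured heavy chain of IgG, was at 0.39 ± 0.66 (SE; limma adjusted p = 0.964).

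**Figure D4:**
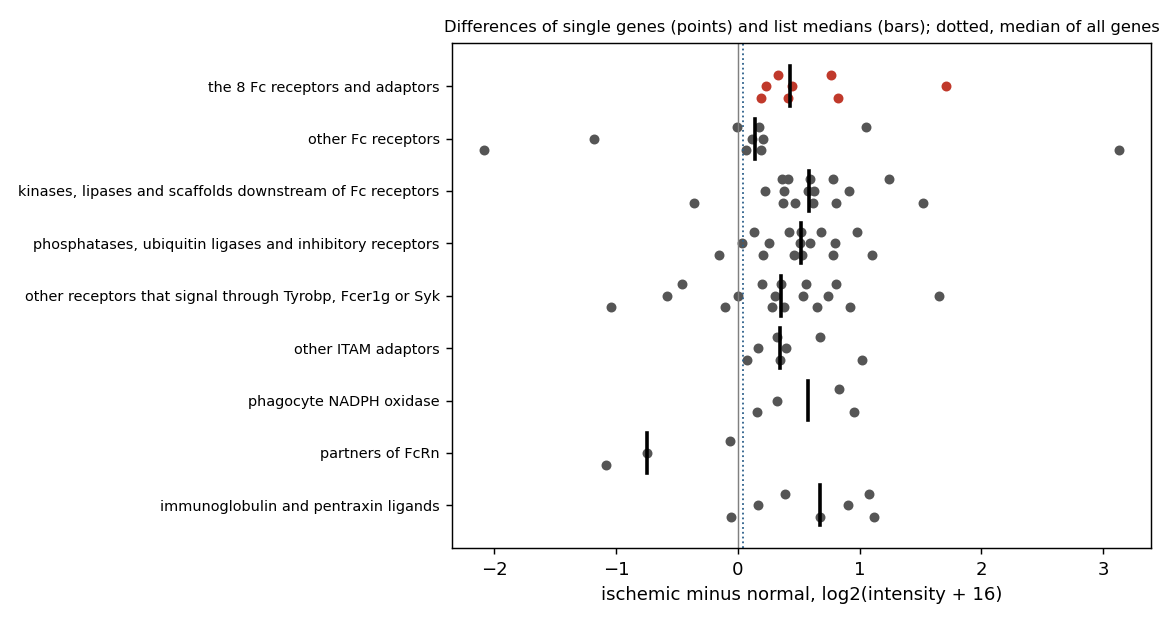
Difference between ischemic and normal means on the log2(intensity + 16) scale for each gene (points) of the 8 Fc receptors and adaptors (red) and of 8 related gene lists (grey), with a black bar at each median and a dotted line at the median of all genes, 0.041. The Fc receptors and adaptors have a median of 0.43 with Fcgr1 at 1.71 far right, and the other Fc receptors run from −2.08 (Pigr) to 3.13 (Fcrls).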

How the data were processed

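GFP-positive cells were sorted from digested kidneys, and their RNA was measured on Affymetrix arrays, per the labels' protocols. For each of 8 arrays the authors deposited linear probe set intensities. Which software, background correction and scaling made them is not given in the sources used here. Precision is limited by the small number of arrays.

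The titles gave the groups. Intensities were taken as log2(value + 16) and quantile normalized without 64 control probe sets. Of 45101 probe sets, 34945 had 1 symbol in the platform annotation, and 932 with several were not used. A gene was its brightest probe set, which gave 18193 genes. limma 3.58.1 in R 4.3.3 compared the groups with Benjamini-Hochberg adjustment over all genes at 0.05. The step was tested on simulated data.

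The members, lists and patterns were chosen with earlier results of these data known. All 8 members are named. From each list the 2 brightest genes and the 2 of lowest p are named (none passed), in the text for marker lists only where a result turns on them, and other list genes stand as counts. Eif2s3y and S100a4 describe the arrays, and Ighg3 is named as the measured IgG chain. Lists hold old and new symbols, and counts are of genes measured. Promoters came from RefSeq (GRCm38.p6), and 1 further pattern is not reported here. Replicate numbers were checked as pairs: deviations of same-numbered arrays correlated at 0.16, −0.088 and 0.10. These values were not compared with those of differently numbered arrays, so they cannot show whether the numbers pair the arrays. The main test did not pair them. Alternatives covered scaling, pseudocounts, probe sets, variance models, array weights, blocks, Xist class and each array left out. Figures used matplotlib 3.10.9 in Python 3.11.15.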

Additional observations from a re-analysis of the deposited data

How the results depend on the processing

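No member passed limma under any alternative run, the lowest adjusted p being 0.122, for Fcgr1. Fcgr1 was positive in all 23 alternatives (0.73 to 2.06). Values that turned negative follow, and their cause was not tested. Fcgr2b was −0.065 centred on ribosomal protein genes, −0.069 without cross-matching probe sets (that probe set alone gives the same value) and −0.19 with another probe set. Fcgr4 was −0.026 centred on array medians, −0.13 centred on ribosomal protein genes, −0.087 among low-Xist arrays and −0.036 to 0.53 with an array left out. Syk, in its brightest probe set, was −0.039 with array weights and −0.46 among low-Xist arrays. Centred on macrophage markers, Fcgr3 was −0.13, Fcer1g −0.18, Tyrobp −0.42, Syk −0.46, Fcgrt −0.57, Fcgr2b −0.69, Fcgr4 −0.76 and the median of the 8 −0.44, while the all-gene median was −0.72.

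The number of the 8 genes with groups apart (1) was 0 when arrays were centred on medians or ribosomal protein genes or probe sets averaged, 3 among low-Xist arrays (where 10.5% of all genes lay apart upward and 10.3% downward), 2 (both lower, as 17.4% of all genes) centred on macrophage markers, and 1 to 4 with an array left out, the 4 being Fcgr1, Fcgr3, Fcgrt and Tyrobp without normal 3, where 6.22% of all genes lay apart upward. Over all genes, 0 passed in the main test, 170 centred on ribosomal protein genes (where the all-gene median was −0.090 and not 0.041), 31 with an intensity trend, 15 above the 40th percentile of level, 5 with array weights, 2 with probe sets averaged, 1 with a pseudocount of 1, 1 with the Xist class as a block, and 0 to 113 with an array left out, the most without normal 3. With the replicate number as a block Fcgr1 was at 1.87, and no member's call changed. Dim probe sets near the floor, such as 1 of Fcgr2b, limit what can be read.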
